A study of Caenorhabditis elegans with 12 samples.

Results

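The comparison described here was that of aged with young feminized animals. The 3 libraries of sixth-day *fog-2(lf)* adults and the 3 of first-day ones were chosen by their labels and make up 6 of the 12 libraries of the series. The remaining 6 were wild-type animals of the same ages and served as the reference for a test of whether the change with age differed by genotype. The animals were whole XX worms of the strain JK574, which carries *fog-2(q71)*, and of the wild-type strain N2. They were grown in synchrony at 20C on plates with Escherichia coli OP50, and none was treated. Polyadenylated RNA was sequenced as single reads, and each library was a pool of many worms labelled as its own biological replicate. First-day animals of both strains were young adults, and the labels name no other allele and no agent for any group.

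Germ cells in a hermaphrodite first become sperm and then oocytes. *fog-2* encodes an F-box protein that works with the RNA-binding protein GLD-1 to hold back translation of *tra-2*, which allows that early round of sperm to be made, and XX animals without *fog-2* make only oocytes and need a male to be fertilized. A wild-type hermaphrodite uses up its own sperm over the first days of adult life, whereas an unmated *fog-2(lf)* female never has any. Whole-animal RNA sums all tissues, and a decline in a tissue-specific transcript can come from fewer cells of that type or from less RNA per cell. Levels are also relative to the RNA of the whole library, so a level can fall where other tissues contribute more. These routes cannot be told apart here.

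The targeted gene was read first. *fog-2* (chromosome V, 20199254 to 20200648, WBcel235) was at 4.86, 3.92 and 4.18 CPM in first-day and 3.57, 3.39 and 3.20 CPM in sixth-day libraries in *fog-2(lf)* (CPM, counts per 1000000 of the scaled library size), whereas the wild-type means were 47.8 ± 4.45 and 55.6 ± 2.61 CPM (SD, n = 3 each). Every *fog-2(lf)* library was therefore below the wild-type mean of either age. Within *fog-2(lf)* it was slightly lower on the sixth day (log2 fold change -0.35, SE 0.12, adjusted p = 0.04), a call that was lost without sixth-day replicate 3 (adjusted p = 0.13) or first-day replicate 1 (0.15). The neighbouring paralog *ftr-1*, which can share reads with *fog-2*, went from 25.8, 26.1 and 25.11 CPM in first-day to 44.5, 41.2 and 45.98 CPM in sixth-day libraries, and its groups did not overlap (log2 fold change 0.77, SE 0.08, adjusted p = 9.8e-05).

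The sperm markers were close to nothing in all 6 libraries: the 37 listed genes summed to between 2.91 and 22.6 CPM in first-day libraries and between 4.61 and 5.39 CPM in sixth-day ones. Markers of embryos after fertilization summed to at most 45.8 CPM, and 14 male markers, counted without the cuticle collagen *col-93*, to at most 3.89 CPM. *col-93* was set apart after the values were seen. With it the male markers summed to 827 to 1928 CPM in first-day libraries and to 4.465 to 7.903 CPM in sixth-day ones. Germline and oocyte markers summed to 21250 to 25510 CPM in first-day libraries and to 21530 to 22010 CPM in sixth-day ones. Estimated counts per library ran from 31868584 to 38775999 in first-day libraries (median 33152327) and from 27195796 to 37749220 in sixth-day ones (median 33940219). The first component of the 12 libraries, with 50.1% of the variance, set the 2 ages apart in both genotypes.

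With age, 5712 of 14576 tested genes (39.2%) changed in *fog-2(lf)* at an adjusted p under 0.1. Of these 2631 were higher (18.1% of those tested) and 3081 lower (21.1%). The changes were mostly moderate, with 847 genes higher and 1351 lower by more than 2-fold. In 5464 of the called genes the first-day and sixth-day libraries did not overlap, beside 7360 of all genes tested (50.5%). Scaling by library totals in place of trimmed means moved the median over all genes from -0.03 to 0.10 on the log2 scale and the share of higher calls from 46.1% to 62.1% of those called (3650 higher and 2227 lower), so log2 fold changes below are relative to the trimmed-mean scale. Gene lists are described by how many of their tested members passed in each direction, to be read against 18.1% and 21.1%.

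**Figure D1:**
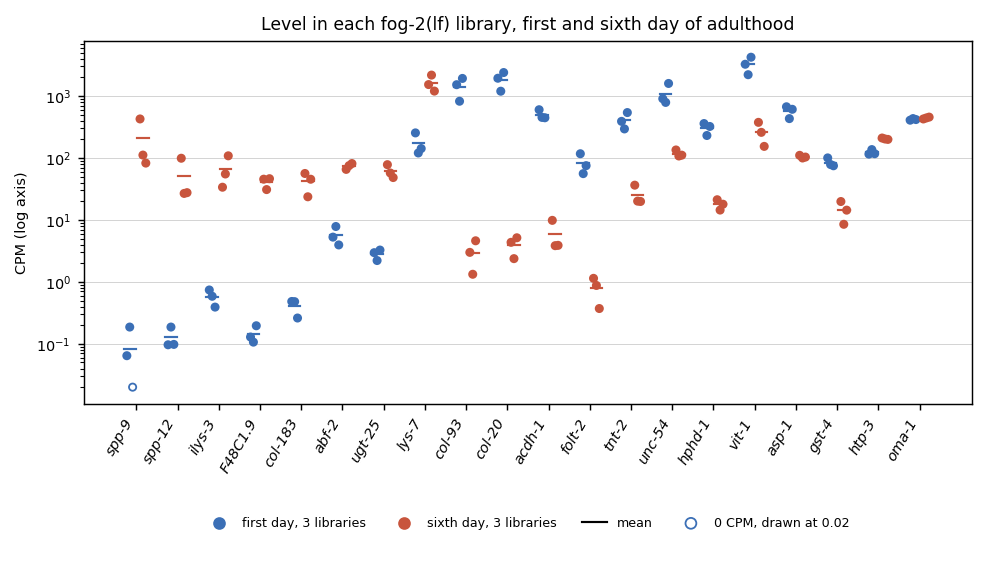
Level of 20 genes in each *fog-2(lf)* library, in CPM on a log axis, with 3 first-day libraries (blue) and 3 sixth-day libraries (red) per gene and a line at each mean. The groups are far apart for the rising genes at the left, antimicrobial ones among them, and for *col-93*, *col-20*, *acdh-1* and *folt-2*. They are close together for the oocyte gene *oma-1*, with means near 420 CPM in first-day libraries and 442 CPM in sixth-day ones.

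The antimicrobial genes *spp-9* and *spp-12* held the largest increases among called genes at 10 CPM or more with no overlap between ages. The saposin-like gene *spp-9* (chromosome X, 11487784 to 11488203) was at 0.0644, 0.187 and 0 CPM in first-day and 427, 111 and 82.7 CPM in sixth-day libraries. *spp-12* (chromosome V, 13889816 to 13890327) was at 0.0966, 0.187 and 0.0980 CPM in first-day and 99.1, 26.8 and 27.6 CPM in sixth-day libraries. Both were near the detection limit in every first-day library and well above it in every sixth-day library, with sixth-day replicate 1 the highest for each. Their log2 fold changes were 11.101 (SE 1.27, adjusted p = 0.00016) and 8.57 (SE 0.86, adjusted p = 7.7e-05), and such folds rest on very few first-day reads. The invertebrate lysozyme *ilys-3* went from 0.740, 0.586 and 0.392 CPM in first-day to 33.7, 55.2 and 108 CPM in sixth-day libraries (log2 fold change 6.83, SE 1.25, adjusted p = 0.0022). *abf-2*, which encodes a secreted antibacterial peptide, went from 5.28, 7.84 and 3.95 CPM in first-day to 65.5, 75.2 and 81.3 CPM in sixth-day libraries (log2 fold change 3.70, SE 0.67, adjusted p = 0.0021). For *lys-7*, a lysozyme named after its values were seen, the levels were 254, 120.5 and 142.1 CPM in first-day and 1531, 2177 and 1202 CPM in sixth-day libraries (log2 fold change 3.25, SE 0.58, adjusted p = 0.0019).

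The list of lysozymes, saposin-like proteins and other antimicrobial effectors moved both ways. The filter on low counts left out 36 of its members, and of the 77 tested, 20 rose and 20 fell. The members named above were all among those that rose. The count of falls was 13 without sixth-day replicate 2 and 11 without sixth-day replicate 3. C-type lectins, carbohydrate-binding proteins many of which are secreted by the intestine, had 94 of 234 members tested, with 13 higher and 34 lower and a median of -0.51. Those falls numbered 22 without sixth-day replicate 3 or without first-day replicate 3, and the rises 8 without first-day replicate 3. *clec-48* was at 68.1, 59.03 and 64.4 CPM in first-day and 9.06, 9.72 and 7.43 CPM in sixth-day libraries (log2 fold change -2.87, SE 0.25, adjusted p = 3.2e-05). *clec-146* went the other way, from 10.6, 15.6 and 13.7 CPM in first-day to 78.2, 40.8 and 55.6 CPM in sixth-day libraries (log2 fold change 2.13, SE 0.56, adjusted p = 0.014).

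The 15 largest increases also held genes of other kinds. F48C1.9, for which no role is given, rose from 0.129, 0.107 and 0.196 CPM in first-day to 45.5, 30.9 and 46.3 CPM in sixth-day libraries (log2 fold change 8.13, SE 0.70, adjusted p = 2.9e-05). The glucuronosyltransferase gene *ugt-25* was at 2.96, 2.21 and 3.27 CPM in first-day and 78.01, 57.3 and 48.3 CPM in sixth-day libraries, with no overlap between the ages (log2 fold change 4.44, SE 0.34, adjusted p = 2.1e-05). *clx-1* was uneven within both ages, at 0.515, 1.17 and 0.0326 CPM in first-day and 8.92, 37.95 and 154 CPM in sixth-day libraries, although the lowest sixth-day library still exceeded the highest first-day one (log2 fold change 6.80, SE 1.13, adjusted p = 0.0013). The collagen gene *col-183* and the insulin-like gene *ins-19*, both described below, also belonged to that set. Its remaining genes were B0238.12, with a log2 fold change of 5.03, and 5 known by sequence names alone (C50F7.5, F15B9.6, T26H5.9, Y37H2A.14 and Y47H10A.5), with log2 fold changes between 3.55 and 4.13.

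The cuticle is the collagen coat that the hypodermis secretes, and 12 of the 15 largest decreases were cuticle collagens. *col-93* (chromosome III, 10984552 to 10985609) was at 1524, 824 and 1924 CPM in first-day and 2.996, 1.33 and 4.61 CPM in sixth-day libraries, a fall by 8.89 on the log2 scale (SE 1.12, adjusted p = 0.00026). *col-20* (chromosome II, 4869670 to 4870791) fell from 1938, 1196 and 2394 CPM in first-day to 4.35, 2.37 and 5.15 CPM in sixth-day libraries (log2 fold change -8.86, SE 0.76, adjusted p = 2.8e-05). In both genes every first-day library was above 800 CPM and every sixth-day library below 6 CPM. *col-119*, the collagen with the highest first-day mean, went from 3208, 2380 and 4164 CPM in first-day to 72.5, 44.5 and 54.01 CPM in sixth-day libraries (log2 fold change -5.83, SE 0.33, adjusted p = 8.1e-06). *col-19*, an adult collagen, went from 1332, 552 and 1370 CPM in first-day to 23.97, 20.99 and 15.04 CPM in sixth-day libraries (log2 fold change -5.76, SE 0.58, adjusted p = 7.9e-05).

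Collagens did not fall as one class. With the mlt genes left out, which are not collagens, 120 of 176 listed collagens were tested, and 23 rose and 44 fell (median -0.80). A split made after the values were seen separated them by name. Of 102 tested col genes, 11 rose and 43 fell (median -1.14). Of 18 tested genes named dpy, rol, sqt, bli or lon for the body shape of their mutants, 12 rose and 1 fell (median 1.47), and without sixth-day replicate 3 none fell. These risers were weakly expressed: *dpy-4*, for example, went from 0.0644, 0.133 and 0.261 CPM in first-day to 1.39, 0.763 and 1.16 CPM in sixth-day libraries (log2 fold change 2.83, SE 0.71, adjusted p = 0.011), and the 20 listed genes together summed to at most 77.3 CPM, beside 1223 to 2016 CPM for the col genes on the sixth day and 19760 to 35310 CPM on the first. Within the col genes, *col-183* rose from 0.483, 0.480 and 0.261 CPM in first-day to 56.2, 23.6 and 45.4 CPM in sixth-day libraries (log2 fold change 6.65, SE 0.73, adjusted p = 0.00012). The marker list of the hypodermis, the tissue that makes the cuticle, itself holds cuticle collagens, among them *col-19*, and so is no separate readout. It had 5 higher and 6 lower of 14 tested. Its sum, to which those collagens contribute, was 2724 to 4485 CPM in first-day libraries and 464.7 to 488.6 CPM in sixth-day ones. The part of this tissue in these changes was not tested.

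**Figure D2:**
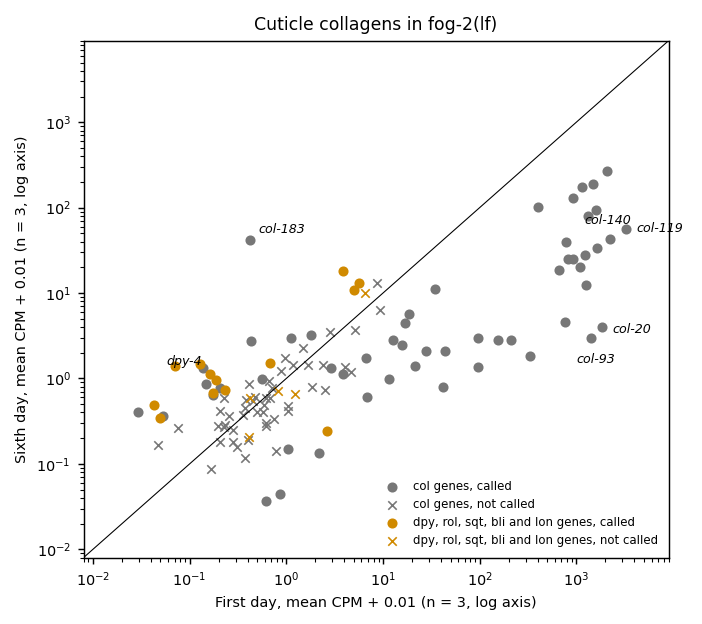
Mean level of each tested cuticle collagen on the first day (x axis) and on the sixth (y axis) in *fog-2(lf)*, in CPM plus 0.01 on log axes, n = 3 libraries each. Points below the diagonal fell: the highly expressed col genes lie far below it, whereas most dpy, rol, sqt, bli and lon genes lie above it at low levels.

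Other genes of the body surface were mixed. Of 50 tested genes of the cuticle and moulting other than collagens, 14 rose and 13 fell (median -0.04). Without first-day replicate 3, 6 rose and 6 fell, and under library totals 14 rose and 7 fell. *noah-1*, which encodes a protein of the apical matrix, was at 10.3, 6.42 and 9.67 CPM in first-day and 12.6, 26.02 and 19.3 CPM in sixth-day libraries (log2 fold change 1.14, SE 0.32, adjusted p = 0.019). Among the hedgehog-related and patched-related genes, a family expanded in nematodes, 13 of 58 tested rose and 15 fell, with 8 rises without first-day replicate 3. *grd-3* fell from 102, 54.4 and 105 CPM in first-day to 5.6, 2.80 and 4.93 CPM in sixth-day libraries (log2 fold change -4.29, SE 0.35, adjusted p = 2.4e-05). *ptr-22* rose from 2.06, 2.80 and 2.58 CPM in first-day to 15.4, 13.4 and 26.8 CPM in sixth-day libraries (log2 fold change 2.90, SE 0.39, adjusted p = 0.0004).

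Muscle transcripts fell together. Of the 46 genes of the filaments and the sarcomere, all of which were tested, 40 fell and 0 rose (median -1.74). The muscle marker list is a subset of these 46 genes and so no separate readout. All 16 of its genes were lower. Their sum went from 4989 to 8293 CPM in first-day libraries to 1063 to 1262 CPM in sixth-day ones. Among the 46 genes the falls numbered 38 under library totals, and leaving out any 1 library gave between 36 and 43.

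The major body-wall myosin heavy chain gene *unc-54* (chromosome I, 14855901 to 14863482) was at 905, 789 and 1596 CPM in first-day and 135, 108 and 111 CPM in sixth-day libraries (log2 fold change -3.22, SE 0.44, adjusted p = 0.0004). First-day replicate 3 was the highest of the 6, and all 3 sixth-day libraries lay close together. The largest fall of those named was that of *tnt-2* (chromosome X, 8721546 to 8723550), which encodes troponin T, from 390.1, 295 and 541 CPM in first-day to 36.4, 20.1 and 19.9 CPM in sixth-day libraries (log2 fold change -4.01, SE 0.28, adjusted p = 1.6e-05). The regulatory light chain gene *mlc-1* went from 252, 167 and 298 CPM in first-day to 36.96, 28.3 and 26.3 CPM in sixth-day libraries (log2 fold change -2.97, SE 0.28, adjusted p = 5.2e-05). The giant sarcomere proteins followed, with the twitchin gene *unc-22* at 54.4, 57.5 and 118 CPM in first-day and 10.5, 9.35 and 12.1 CPM in sixth-day libraries (log2 fold change -2.84, SE 0.62, adjusted p = 0.0057). The actin gene *act-4*, named after its values were seen, was at 1142, 961 and 1489 CPM in first-day and 284, 288 and 288 CPM in sixth-day libraries (log2 fold change -2.06, SE 0.14, adjusted p = 1.2e-05).

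The extracellular matrix under the muscle moved the same way in part. Of 30 genes of basement membranes and matrix, 15 fell and 2 rose (median -0.59). *unc-52*, which encodes the perlecan that anchors muscle to the hypodermis, fell from 101, 86.1 and 164.4 CPM in first-day to 14.7, 16.8 and 17.8 CPM in sixth-day libraries (log2 fold change -2.83, SE 0.54, adjusted p = 0.0026). The type IV collagen gene *emb-9* was at 196, 209 and 337 CPM in first-day and 66.7, 78.2 and 81.7 CPM in sixth-day libraries (log2 fold change -1.71, SE 0.39, adjusted p = 0.0069). The hemicentin gene *him-4* was at 32.1, 26.2 and 59.4 CPM in first-day and 7.53, 9.27 and 9.84 CPM in sixth-day libraries (log2 fold change -2.14, SE 0.56, adjusted p = 0.014). In all 3 the first-day and sixth-day libraries did not overlap.

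Yolk proteins are made in the intestine and taken up by oocytes. Of the 6 vit genes, 5 fell and 1 did not pass (median -2.18), and their sum went from 47990 to 68440 CPM in first-day libraries to 15760 to 27640 CPM in sixth-day ones. *vit-1* (chromosome X, 7727889 to 7733168) was at 3259, 2210 and 4230 CPM in first-day and 376, 259 and 154 CPM in sixth-day libraries (log2 fold change -3.62, SE 0.49, adjusted p = 0.0004), and *vit-3* and *vit-4* had log2 fold changes of -3.29 and -2.97. *vit-2* (chromosome X, 5101042 to 5106169) was at 11070, 11370 and 15320 CPM in first-day and 5714, 4846 and 4314 CPM in sixth-day libraries (log2 fold change -1.34, SE 0.31, adjusted p = 0.0068). *vit-5* was at 10190, 12600 and 14680 CPM in first-day and 11400, 7258 and 6699 CPM in sixth-day libraries, with overlapping groups, and did not pass (log2 fold change -0.56, SE 0.40, adjusted p = 0.32). For the genes with a lower floor, *vit-1*, *vit-3* and *vit-4*, sixth-day replicate 1 was the highest sixth-day library. The receptor that brings yolk into oocytes, *rme-2*, was named after its values were seen, at 1329, 1568 and 1331 CPM in first-day and 1311, 1247 and 1262 CPM in sixth-day libraries (log2 fold change -0.15, SE 0.09, adjusted p = 0.27).

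Of 56 intestinal proteases 49 were tested, with 8 higher, 22 lower and 19 that did not pass (median -0.40). The aspartic protease gene *asp-1*, expressed in the intestine, fell from 671, 432 and 611 CPM in first-day to 110.4, 100 and 103.5 CPM in sixth-day libraries (log2 fold change -2.45, SE 0.20, adjusted p = 2.4e-05). The cathepsin A-like gene *ctsa-3.1* went from 22.9, 14.3 and 18.7 CPM in first-day to 4.42, 2.54 and 3.097 CPM in sixth-day libraries (log2 fold change -2.48, SE 0.27, adjusted p = 0.00011). A second aspartic protease gene, *asp-17*, rose instead, from 4.73, 3.46 and 4.34 CPM in first-day to 35.6, 30.7 and 16.9 CPM in sixth-day libraries (log2 fold change 2.73, SE 0.32, adjusted p = 0.00018). The intestinal marker list, which itself holds the protease genes *asp-1* and *cpr-1*, had 1 of 15 higher and 8 lower. Its sum, to which *vit-2* and *vit-6* contribute, was 26170 to 36760 CPM in first-day libraries and 9051 to 14670 CPM in sixth-day ones. The part of the intestine in these changes was not tested.

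Propionate and one-carbon metabolism held several large falls. Of 33 genes for propionate, folate, methionine and S-adenosylmethionine, 19 fell and 3 rose (median -0.66), and the rises numbered 1 without sixth-day replicate 1 or 2 and 0 without first-day replicate 3. *acdh-1* (chromosome I, 6497436 to 6499560), the acyl-CoA dehydrogenase of the propionate shunt, was at 601, 452 and 446 CPM in first-day and 9.85, 3.84 and 3.89 CPM in sixth-day libraries (log2 fold change -6.43, SE 0.46, adjusted p = 1.7e-05). *hphd-1*, a dehydrogenase gene of the same shunt, fell from 359.6, 231 and 323 CPM in first-day to 21.2, 14.4 and 17.9 CPM in sixth-day libraries (log2 fold change -4.09, SE 0.26, adjusted p = 8.9e-06). The folate transporter gene *folt-2* went from 117, 55.9 and 75.2 CPM in first-day to 1.14, 0.876 and 0.372 CPM in sixth-day libraries (log2 fold change -6.74, SE 0.67, adjusted p = 7.4e-05). The nuclear receptor genes *nhr-68*, which controls the shunt, and *nhr-114*, which acts in methionine and S-adenosylmethionine metabolism, were lower too, with log2 fold changes of -2.65 (adjusted p = 0.00033) and -3.35 (adjusted p = 0.00032). *pccb-1*, a subunit of propionyl-CoA carboxylase in the pathway that needs vitamin B12, was named after its values were seen and fell less, from 337, 386 and 390.5 CPM in first-day to 187, 189.6 and 166 CPM in sixth-day libraries (log2 fold change -1.04, SE 0.08, adjusted p = 2.2e-05).

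Central carbon metabolism fell in most of its genes. Of 49 tested genes of glycolysis, the citric acid cycle and the glyoxylate cycle, 41 fell and 1 rose (median -0.55), with 34 falls under library totals. The aldolase gene *aldo-1* was at 75.3, 65.9 and 94.3 CPM in first-day and 21.7, 20.5 and 24.5 CPM in sixth-day libraries (log2 fold change -1.82, SE 0.15, adjusted p = 2.3e-05). The glyceraldehyde-3-phosphate dehydrogenase gene *gpd-2* fell from 356, 304 and 371 CPM in first-day to 138, 108 and 115.9 CPM in sixth-day libraries (log2 fold change -1.51, SE 0.15, adjusted p = 6.5e-05). The phosphofructokinase gene *pfk-1.1* went from 149, 141 and 158 CPM in first-day to 64.2, 66.3 and 61.9 CPM in sixth-day libraries (log2 fold change -1.22, SE 0.11, adjusted p = 3.2e-05). In none of these 3 did the ages overlap.

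Of 74 tested genes of the respiratory chain and the ATP synthase, 46 fell and 2 rose (median -0.27), with 26 falls and 3 rises under library totals. *sdha-1*, a subunit of succinate dehydrogenase, went from 113.5, 120.0 and 136 CPM in first-day to 53.01, 57.3 and 53.5 CPM in sixth-day libraries (log2 fold change -1.17, SE 0.10, adjusted p = 2.4e-05). The ATP synthase subunit genes *asb-2* and *asg-2* had log2 fold changes of -1.05 (adjusted p = 8.4e-05) and -1.3 (adjusted p = 7.3e-05). The 12 genes of the mitochondrial genome, a set added after the values were seen, gave 5 falls and 0 rises (median -0.33).

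Genes of fatty acid activation and beta-oxidation fell in 22 of 69 cases and rose in 5 (median -0.19), with 18 falls and 6 rises under library totals. Leaving out any 1 library gave between 3 and 7 rises. Of 25 tested genes of fatty acid desaturation, elongation and synthesis, 3 rose and 9 fell (median -0.20). The rises numbered 1 without sixth-day replicate 1 or first-day replicate 3, and 5 without wild-type first-day replicate 2. *fat-7*, a delta-9 desaturase gene, fell from 18.8, 6.93 and 12.3 CPM in first-day to 1.32, 1.39 and 0.892 CPM in sixth-day libraries (log2 fold change -3.40, SE 0.68, adjusted p = 0.0035). *fat-2*, a delta-12 desaturase gene, rose from 531, 542 and 502 CPM in first-day to 1099, 1148 and 973 CPM in sixth-day libraries (log2 fold change 1.03, SE 0.30, adjusted p = 0.024). The omega-3 desaturase gene *fat-1* was at 323, 371 and 312 CPM in first-day and 675, 565 and 516 CPM in sixth-day libraries (log2 fold change 0.80, SE 0.25, adjusted p = 0.03), a call lost without sixth-day replicate 1 or first-day replicate 3 (adjusted p = 0.1 in both). The delta-6 desaturase gene *fat-3* was at 91.3, 125 and 101 CPM in first-day and 241, 207 and 208 CPM in sixth-day libraries (log2 fold change 1.05, SE 0.39, adjusted p = 0.062), and its call was lost without any 1 of 5 of the 6 *fog-2(lf)* libraries, with adjusted p between 0.11 and 0.17; it held without first-day replicate 2. All 4 were named after their values were seen. Of lipid-binding proteins, *far-3* rose from 31.5, 95.04 and 25.3 CPM in first-day to 534, 306 and 382 CPM in sixth-day libraries (log2 fold change 3.01, SE 0.56, adjusted p = 0.0023). *lbp-5* fell from 21.2, 19.8 and 17.3 CPM in first-day to 3.82, 4.89 and 4.31 CPM in sixth-day libraries (log2 fold change -2.16, SE 0.29, adjusted p = 0.00036).

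The detoxification families are given one by one, and differences between them were not tested. Of 40 tested glutathione S-transferases, 19 fell and 2 rose (median -0.80), with 1 to 4 rises when any 1 library was left out. *gst-4* was at 100.3, 78.4 and 74.9 CPM in first-day and 19.8, 8.51 and 14.4 CPM in sixth-day libraries (log2 fold change -2.57, SE 0.30, adjusted p = 0.00018). *gst-10* was at 86.3, 46.9 and 73.0 CPM in first-day and 19.2, 6.47 and 6.49 CPM in sixth-day libraries (log2 fold change -2.69, SE 0.51, adjusted p = 0.0025). Of 44 tested short-chain and aldehyde dehydrogenases, 20 fell and 5 rose (median -0.30), with 3 to 8 rises when any 1 library was left out. Under library totals 15 fell and 8 rose. *dhs-25* fell from 157, 62.5 and 146.3 CPM in first-day to 11.99, 8.08 and 9.56 CPM in sixth-day libraries (log2 fold change -3.63, SE 0.44, adjusted p = 0.00021). Cytochrome P450 genes had 23 of 64 tested members higher and 11 lower (median 0.21), with 12 higher without first-day replicate 1 and 7 lower without first-day replicate 3. Of 62 tested UDP-glucuronosyltransferases, the family of *ugt-25*, 11 rose and 15 fell (median -0.15). In a P450 subset chosen after its values were seen, 4 of the 5 *cyp-35A* genes fell, *cyp-35A2* from 123, 128 and 166 CPM in first-day to 42.4, 26.3 and 15.2 CPM in sixth-day libraries (log2 fold change -2.32, SE 0.35, adjusted p = 0.00074). *cyp-14A3*, named after its values were seen, rose from 0.0966, 0.533 and 0.0326 CPM in first-day to 22.5, 11.19 and 3.25 CPM in sixth-day libraries (log2 fold change 5.70, SE 1.14, adjusted p = 0.0034).

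**Figure D3:**
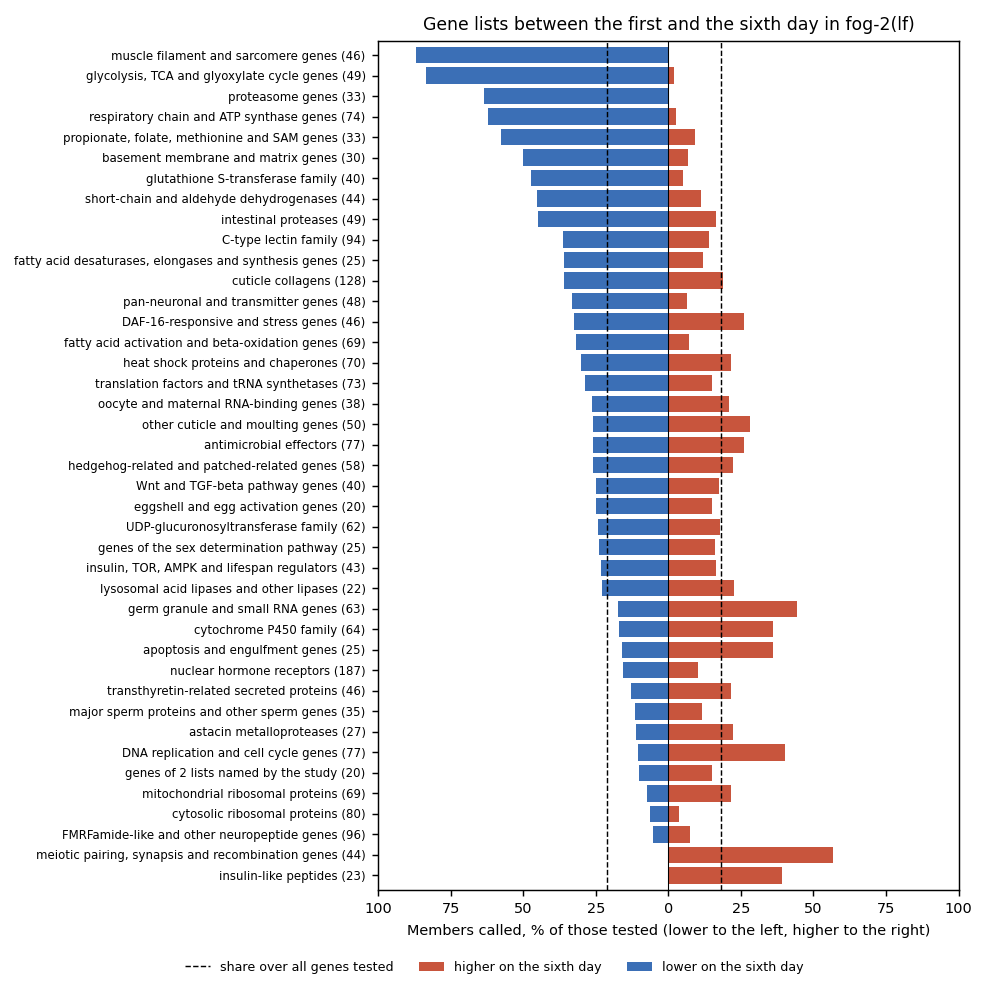
Share of each gene list of at least 20 tested members that was called higher (red, to the right) or lower (blue, to the left) on the sixth day in *fog-2(lf)*, with the number tested in parentheses. Dashed lines mark the shares over all genes tested, 18.1% and 21.1%; the muscle and glycolysis lists reach far to the left, and the meiosis and insulin-like lists have no blue bar.

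Few cytosolic ribosomal protein genes passed. Of 80 tested, 3 rose and 5 fell, with a median of 0.00, and a scaling by library totals gave 14 rises, 2 falls and a median of 0.14. The falls numbered 2 without sixth-day replicate 1, sixth-day replicate 3 or first-day replicate 1, 3 without first-day replicate 3 or wild-type sixth-day replicate 2 or 3, and 9 without first-day replicate 2. *rpl-11.2* fell from a mean of 224 ± 58.1 CPM in first-day to 118 ± 6.07 CPM in sixth-day libraries (SD, n = 3 each; log2 fold change -0.92, SE 0.16, adjusted p = 0.0014). Its second copy *rpl-11.1* rose from 1033, 906 and 1018 CPM in first-day to 1388, 1274 and 1208 CPM in sixth-day libraries (log2 fold change 0.39, SE 0.09, adjusted p = 0.0082). Paralogs of this kind can exchange reads.

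Of 33 proteasome genes, 21 fell and 0 rose (median -0.21), and under library totals 7 fell and 2 rose. *pbs-5*, a subunit of the proteasome core, went from 360.1, 338 and 377 CPM in first-day to 205, 229 and 204 CPM in sixth-day libraries (log2 fold change -0.75, SE 0.08, adjusted p = 8.7e-05). Over all 70 heat shock and chaperone genes 15 rose and 21 fell. In a subset chosen after its values were seen, the CCT chaperonin, which folds actin and tubulin, all 8 subunit genes fell (median -0.63), and *cct-5* went from 754, 664 and 744 CPM in first-day to 426, 442 and 393 CPM in sixth-day libraries (log2 fold change -0.78, SE 0.11, adjusted p = 0.00053). The small heat shock protein gene *hsp-25* fell from 62.1, 52.1 and 70.5 CPM in first-day to 19.2, 21.8 and 20.2 CPM in sixth-day libraries (log2 fold change -1.59, SE 0.13, adjusted p = 2.2e-05). The J-domain gene *dnj-22* rose from 60.4, 55.4 and 56.2 CPM in first-day to 111.8, 103.6 and 96.0 CPM in sixth-day libraries (log2 fold change 0.86, SE 0.09, adjusted p = 0.00012).

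Meiotic genes rose slightly where they passed. Of 44 genes of meiotic pairing, synapsis and recombination, 25 rose and 0 fell (median 0.25), and leaving out any 1 library gave between 21 and 26 rises. *htp-3*, which encodes an axis protein of meiotic chromosomes, went from 115.5, 137 and 117 CPM in first-day to 210.0, 203 and 199.5 CPM in sixth-day libraries (log2 fold change 0.73, SE 0.07, adjusted p = 8.5e-05). *syp-1*, a central component of the synaptonemal complex, was at 56.01, 65.8 and 57.05 CPM in first-day and 100.1, 91.8 and 98.4 CPM in sixth-day libraries (log2 fold change 0.70, SE 0.09, adjusted p = 0.0004). The cohesin subunit gene *coh-3* was at 50.7, 61.4 and 53 CPM in first-day and 91.2, 92.3 and 89.4 CPM in sixth-day libraries (log2 fold change 0.72, SE 0.10, adjusted p = 0.00038). In all 3 genes the lowest sixth-day library was above the highest first-day one.

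Germ granule and small RNA genes gave 28 rises and 11 falls of 63 tested (median 0.16), with 7 falls under library totals. Of DNA replication and cell cycle genes, 31 of 77 rose and 8 fell (median 0.10), with 5 falls without sixth-day replicate 3, 13 without wild-type first-day replicate 2 and 3 under library totals. *hcp-3*, the centromeric histone gene, rose from a mean of 151.9 ± 13.5 CPM in first-day to 241 ± 11.7 CPM in sixth-day libraries (SD, n = 3 each; log2 fold change 0.66, SE 0.08, adjusted p = 0.00029). The 4 meg genes, whose products associate with P granules in the embryo, were set apart after their values were seen, and all 4 fell (median -0.64), *meg-1* from 293, 384 and 345 CPM in first-day to 188, 193 and 184 CPM in sixth-day libraries (log2 fold change -0.85, SE 0.09, adjusted p = 0.00012). *cdc-25.2*, a phosphatase gene that acts in oocyte maturation, fell from 88.8, 89.1 and 89.6 CPM in first-day to 40.8, 48.9 and 43.5 CPM in sixth-day libraries (log2 fold change -1.01, SE 0.09, adjusted p = 4.0e-05). *alg-2*, an Argonaute of the microRNA pathway, went from 93.3, 113.5 and 107 CPM in first-day to 53.8, 59.99 and 53.1 CPM in sixth-day libraries (log2 fold change -0.91, SE 0.10, adjusted p = 0.00012).

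Oocyte genes went both ways. Over the 38 oocyte RNA-binding genes 8 rose, 10 fell and 20 did not pass (median -0.02). The rises numbered 5 without first-day replicate 1 or 3, the falls 5 without first-day replicate 2, and the direction of the balance turned under library totals, with 13 rises and 4 falls. The germline and oocyte marker list is drawn wholly from genes of the oocyte, eggshell, meiotic and germ granule lists, and so is no separate readout. It gave 5 rises and 6 falls of 20 (median -0.01). There were 3 rises without first-day replicate 3, 3 falls without first-day replicate 2, and 8 rises and 2 falls under library totals. Of 20 eggshell and egg activation genes, 3 rose and 5 fell. There the rises numbered 1 without sixth-day replicate 1 or 3 or first-day replicate 1 or 3. The falls numbered 3 without sixth-day replicate 1 or 2 or first-day replicate 3, and 2 without sixth-day replicate 3 or first-day replicate 2. Under library totals 7 eggshell genes rose and 1 fell. The oocyte maturation regulators *oma-1* and *oma-2* were named after their values were seen. *oma-1* was at 408, 433 and 417 CPM in first-day and 427, 442 and 457 CPM in sixth-day libraries and did not pass (log2 fold change 0.08, SE 0.07, adjusted p = 0.45). *oma-2* went from 816, 872 and 817 CPM in first-day to 661, 662 and 619 CPM in sixth-day libraries (log2 fold change -0.37, SE 0.07, adjusted p = 0.0024). *cbd-1*, an eggshell protein gene, fell from 2977, 3862 and 3450 CPM in first-day to 2454, 2491 and 2570 CPM in sixth-day libraries (log2 fold change -0.45, SE 0.12, adjusted p = 0.014). *egg-4*, a pseudophosphatase gene of egg activation, rose from 278, 366 and 302 CPM in first-day to 474, 422 and 477 CPM in sixth-day libraries (log2 fold change 0.54, SE 0.10, adjusted p = 0.002).

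Among sex determination genes, 4 of 25 rose and 6 fell, with 2 rises without sixth-day replicate 3 and 7 rises and 4 falls under library totals. *tra-2*, the target that FOG-2 and GLD-1 hold back in translation, was named after its values were seen and went from 107, 119.7 and 109 CPM in first-day to 71.4, 79.6 and 76.8 CPM in sixth-day libraries (log2 fold change -0.56, SE 0.08, adjusted p = 0.00054). *sdc-3*, which acts in dosage compensation and sex determination, fell from 54.05, 50.2 and 46.8 CPM in first-day to 25.3, 30.5 and 28.7 CPM in sixth-day libraries (log2 fold change -0.84, SE 0.21, adjusted p = 0.01).

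In the nervous system, 16 of 48 tested pan-neuronal and transmitter genes fell and 3 rose (median -0.15). The falls numbered 10 without sixth-day replicate 3 or first-day replicate 3, the rises 5 without wild-type first-day replicate 2, and a scaling by library totals gave 10 rises and 12 falls. *unc-18*, which encodes a syntaxin-binding protein of vesicle release, fell from 47.2, 48.4 and 48.8 CPM in first-day to 27.6, 31.7 and 30.3 CPM in sixth-day libraries (log2 fold change -0.69, SE 0.10, adjusted p = 0.00076). The dynamin gene *dyn-1* went from 119.2, 120.1 and 137 CPM in first-day to 76.4, 70.5 and 72.7 CPM in sixth-day libraries (log2 fold change -0.78, SE 0.08, adjusted p = 9.0e-05). The decarboxylase gene *bas-1*, needed for serotonin and dopamine, fell from 16.8, 12.9 and 16.2 CPM in first-day to 5.89, 5.51 and 5.03 CPM in sixth-day libraries (log2 fold change -1.48, SE 0.18, adjusted p = 0.00024). *unc-18* and *dyn-1* are X-linked, and both genes are also expressed outside neurons.

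Neuropeptide genes mostly did not pass: of 96 tested, 7 rose and 5 fell. The rises numbered 4 without first-day replicate 2 and 11 without wild-type first-day replicate 2, and the falls 8 without the latter. *flp-6* rose from 11.5, 9.33 and 11.6 CPM in first-day to 44.2, 48.1 and 51.2 CPM in sixth-day libraries (log2 fold change 2.15, SE 0.46, adjusted p = 0.0052). *nlp-24* and *nlp-33* fell, *nlp-24* from 25.6, 12.4 and 24.6 CPM in first-day to 2.46, 1.41 and 2.03 CPM in sixth-day libraries (log2 fold change -3.41, SE 0.46, adjusted p = 0.0004).

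Insulin-like peptides, ligands of the DAF-2 receptor whose pathway sets adult lifespan, rose where they passed. Of 39 genes, 23 were tested, and 9 rose and 0 fell (median 0.58), with 1 fall without first-day replicate 2. They were weakly expressed, with the whole family at 17.8 to 22.8 CPM in first-day libraries and 37.9 to 52.7 CPM in sixth-day ones. *ins-19* rose from 0.805, 1.68 and 0.555 CPM in first-day to 25.5, 21.5 and 14.1 CPM in sixth-day libraries (log2 fold change 4.31, SE 1.01, adjusted p = 0.0079). *daf-16*, the FOXO factor of the pathway, was named after its values were seen and stayed at 172, 181 and 185 CPM in first-day and 155, 178 and 185 CPM in sixth-day libraries (log2 fold change -0.05, SE 0.10, adjusted p = 0.71). Of 46 tested genes that respond to DAF-16 or to stress, 12 rose and 15 fell, with 9 falls under library totals. *dod-6* rose from 10.3, 24.25 and 11.17 CPM in first-day to 115.9, 156 and 107 CPM in sixth-day libraries (log2 fold change 3.05, SE 0.49, adjusted p = 0.001). *pud-3* fell from 35.5, 10.9 and 23.6 CPM in first-day to 1.03, 0.367 and 0.644 CPM in sixth-day libraries (log2 fold change -5.13, SE 0.76, adjusted p = 0.00068).

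Of 187 tested nuclear hormone receptors, 19 rose and 29 fell, with 26 and 22 under library totals. *nhr-40* fell from 18.8, 21.3 and 18.7 CPM in first-day to 8.88, 9.04 and 7.56 CPM in sixth-day libraries (log2 fold change -1.21, SE 0.14, adjusted p = 0.00015). Transthyretin-related secreted proteins gave 10 rises and 6 falls of 46 tested (median 0.04). The falls numbered 2 without sixth-day replicate 2 or 3 or first-day replicate 1, and 3 without first-day replicate 3 or under library totals. *ttr-45* went from 115, 145.6 and 133 CPM in first-day to 589, 503 and 626 CPM in sixth-day libraries (log2 fold change 2.13, SE 0.29, adjusted p = 0.00043). Its neighbour on chromosome IV, *ttr-51*, went from 251, 262 and 243 CPM in first-day to 984, 742 and 928 CPM in sixth-day libraries (log2 fold change 1.81, SE 0.27, adjusted p = 0.00071).

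X-linked genes fell far more often than autosomal ones. Of 2064 tested genes on X, 786 were lower (38.08%) and 122 higher (5.91%), and the median log2 fold change was -0.39, whereas it lay between 0.00 and 0.04 on the 5 autosomes, where 17.01% to 20.05% of genes were lower. Under library totals 632 X-linked genes were lower and 167 higher (median -0.26), and leaving out any 1 library gave 622 to 863 lower, with the number higher at 73 without first-day replicate 3, at 81 without sixth-day replicate 3 and at most 166. The median stayed between -0.36 and -0.44 in all 12 of those fits. With the muscle, matrix, neuron, neuropeptide, cuticle, hedgehog-related and yolk lists left out, a step added after the values were seen, 750 of 1970 X-linked genes were lower and 115 higher (median -0.40).

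The median was lower on X than on autosomes at every expression level, though few genes passed at the lowest. At a mean under 1 CPM, 86 of 544 X-linked genes fell and 34 rose (median -0.28). Of 2752 autosomal genes at that level, 280 fell and 338 rose (median 0.02). At a mean of 10 to 100 CPM, 393 of 680 X-linked genes fell and 23 rose, beside 745 falls and 1047 rises of 3869 autosomal genes. At 1 to 10 CPM the median was -0.37 on X and -0.12 on autosomes, and at 100 CPM or more it was -0.63 and 0.04. X-linked genes took 8.92%, 8.23% and 10.12% of counts in the first-day libraries and 5.95%, 5.23% and 5.0% in the sixth-day libraries, a share to which 5 of the 6 vit genes contribute. In wild type the corresponding X-linked numbers were 653 lower and 385 higher of 2064 (median -0.16). These were 31.64% and 18.65%, beside 25.4% and 23.4% over all genes tested in wild type. Under library totals 390 were lower and 774 higher there, but all genes moved upward on that scale. The wild-type median was then 0.27 on X and 0.42 over all genes tested, so X still lay lower.

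**Figure D4:**
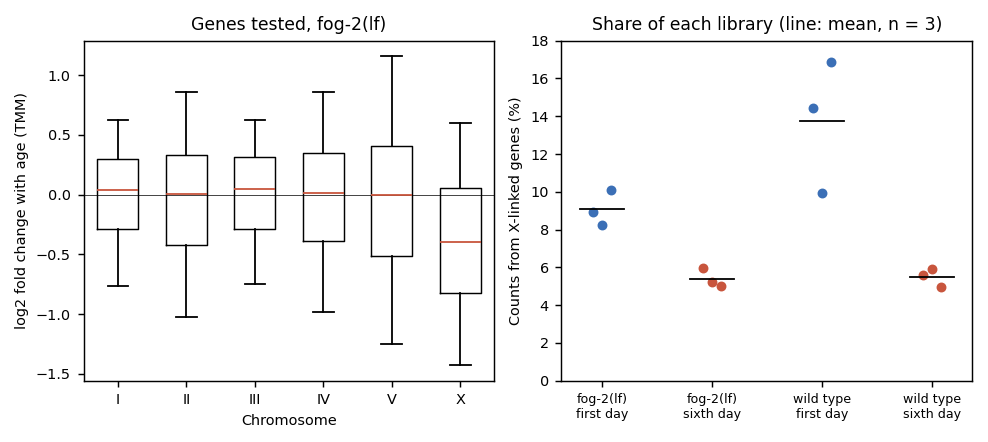
Left, log2 fold change with age in *fog-2(lf)* for all tested genes by chromosome (box: quartiles and median, whiskers: 10th and 90th percentile). Right, share of counts from X-linked genes in each of the 12 libraries; in *fog-2(lf)* it was 8.23% to 10.12% on the first day and 5.0% to 5.95% on the sixth.

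Set beside wild type, 3455 genes changed in the same direction in both genotypes, which is 60.49% of those called in *fog-2(lf)* and 48.55% of the 7116 called in wild type (48.8% of genes tested). Another 158 were called in opposite directions, and 2099 (36.75% of those called in *fog-2(lf)*) were not called in wild type. The age-by-genotype term, which tests the difference between the 2 changes directly, was called for 2223 genes (15.3%), 1072 with the change in *fog-2(lf)* above that in wild type (7.35%) and 1151 below (7.9%). For 4615 of the 5712 genes called in *fog-2(lf)*, 80.79%, it was not called. This split depended on scaling, with 413 above and 2779 below under library totals. Without sixth-day replicate 1, 2 or 3 of *fog-2(lf)* the calls numbered 1021, 1350 and 1712, and without first-day replicate 1, 2 or 3 they numbered 1425, 1925 and 1071. Without wild-type sixth-day replicate 1, 2 or 3 they numbered 1511, 1039 and 1408, and without wild-type first-day replicate 1, 2 or 3 they numbered 1609, 3302 and 2589. Wild-type first-day replicate 2 lay apart from its 2 partners on the second component, at 3.23 beside -51.3 and -61.5.

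Muscle genes also fell in wild type, with 24 of the 46 filament and sarcomere genes lower and 4 higher (median -0.43). Over all genes tested in wild type 25.4% were lower and 23.4% higher. Where muscle genes differed between genotypes, the change was lower in the feminized animals. The interaction was called for 23 of the 46 filament and sarcomere genes and lower in all 23, with 32 under library totals. The count was 9 without sixth-day replicate 1 or 2, 14 without sixth-day replicate 3, 12 without first-day replicate 1, 8 without first-day replicate 3, 8 and 9 without wild-type sixth-day replicates 2 and 3, and 12 without wild-type first-day replicate 1. The obscurin gene *unc-89* fell from 55.2, 57.8 and 115.7 CPM in first-day to 15.6, 14.7 and 19 CPM in sixth-day libraries in *fog-2(lf)* (log2 fold change -2.21, SE 0.49, adjusted p = 0.0059). In wild type its log2 fold change was 0.81 (adjusted p = 0.2), and the difference was -3.02 (adjusted p = 0.029). For *act-4* the changes were -2.06 and -1.12 (difference -0.94, adjusted p = 0.023).

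Yolk and ribosomal genes lay on the other side. All 6 vit genes had a called difference upward, with 3 called without sixth-day replicate 1. For *vit-2* the log2 fold changes were -1.34 and -3.31 (difference 1.96, adjusted p = 0.027), and for *vit-1* they were -3.62 and -6.79 (difference 3.17, adjusted p = 0.023). The cytosolic ribosomal genes fell in 79 of 80 cases in wild type (median -0.64), where 25.4% of all genes tested fell. Of the 80 differences 74 were called, all upward, but only 14 under library totals. Intestinal proteases gave 19 differences upward and 3 downward, with 19 and 4 under library totals; the downward count was 1 without sixth-day replicate 1 or 2, first-day replicate 1 or 3 or any 1 wild-type sixth-day library, and 5 without wild-type first-day replicate 3. *ctsa-3.1* was an example, with -2.48 in *fog-2(lf)* and -5.27 in wild type (difference 2.79, adjusted p = 0.0085).

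Neuropeptide genes rose in 48 of 96 cases in wild type and in 7 in *fog-2(lf)*. The difference was called downward for 18 and upward for 1, with 33 and 1 under library totals. The downward count was 11 without sixth-day replicate 2, 9 without first-day replicate 3 and 11 without wild-type sixth-day replicate 2, and the upward count was 2 without first-day replicate 2, 0 without wild-type sixth-day replicate 2 and 10 without wild-type first-day replicate 2. The upward gene was *flp-6*. *flp-13* was at 0.901, 1.31 and 1.01 CPM in first-day and 1.28, 0.819 and 1.14 CPM in sixth-day libraries in *fog-2(lf)* (log2 fold change 0.00, SE 0.34, adjusted p = 0.99) and rose by 2.0 in wild type (difference -2.0, adjusted p = 0.04).

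**Figure D5:**
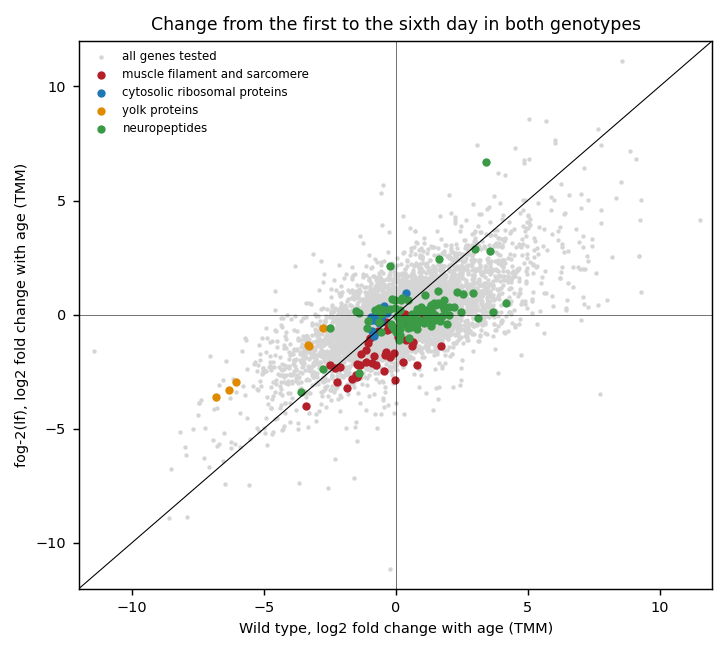
Log2 fold change with age in wild type (x axis) and in *fog-2(lf)* (y axis) for the 14576 genes tested, both on the trimmed-mean scale, with 4 gene lists coloured and a diagonal of equal change. Muscle genes lie mostly below the diagonal, yolk and ribosomal genes above it, and many neuropeptide genes near 0 on the y axis with a rise on the x axis.

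A smaller set went in opposite directions. Among them were 3 genes for desaturases of polyunsaturated fatty acids: *fat-1*, *fat-2* and *fat-3* rose by 0.80, 1.03 and 1.05 in *fog-2(lf)* and had log2 fold changes of -0.94, -0.97 and -1.34 in wild type (differences 1.75, 2.0 and 2.38, adjusted p = 0.023, 0.026 and 0.032). The astacin protease gene *nas-20* rose from 28.5, 21.3 and 25.24 CPM in first-day to 68.1, 65.9 and 48.8 CPM in sixth-day libraries in *fog-2(lf)* (log2 fold change 1.28, SE 0.23, adjusted p = 0.002) and fell by 1.47 in wild type (difference 2.75, adjusted p = 0.0065). The X-linked immunoglobulin-domain gene *igcm-4*, named after its values were seen, fell from 25.5, 17.4 and 24.3 CPM in first-day to 7.85, 9.52 and 6.74 CPM in sixth-day libraries (log2 fold change -1.48, SE 0.20, adjusted p = 0.00045) and rose by 0.76 in wild type (difference -2.24, adjusted p = 0.0082). The lysosomal lipase gene *lipl-1* was at 2.41, 4.85 and 4.90 CPM in first-day and 18.9, 26.2 and 8.94 CPM in sixth-day libraries in *fog-2(lf)*, which just missed the threshold (log2 fold change 2.15, SE 0.94, adjusted p = 0.1), and had a log2 fold change of -3.83 in wild type (difference 5.98, adjusted p = 0.031).

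Isoforms of one gene sometimes moved against each other. Tested one by one, 5686 of 21695 isoforms changed with age in *fog-2(lf)* (26.2%), and of 4053 genes with at least 2 tested isoforms, 171 had one higher and another lower, 120 of them with both at 10 CPM or more on one of the days. How reads shared by isoforms are divided is itself an estimate. The isoform R13H8.1b.1 of *daf-16* was at 14.3, 11.43 and 17.96 CPM in first-day libraries and at 5.21, 5.4 and 5.55 CPM in sixth-day ones (log2 fold change -1.43, SE 0.26, adjusted p = 0.0054). R13H8.1d of the same gene was at 0.13, 0.51 and 0.07 CPM and then at 11.38, 2.23 and 8.94 CPM (log2 fold change 4.95, SE 1.65, adjusted p = 0.064). The sum over all *daf-16* isoforms did not pass.

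The laminin alpha gene *epi-1* divided more sharply. Its isoform K08C7.3f.1 was at 10.3, 9.60 and 16.8 CPM in first-day libraries and at 0 in all 3 sixth-day libraries, whereas K08C7.3d.1 went from 10.5, 3.89 and 5.42 CPM to 34.8, 40.2 and 33.6 CPM (log2 fold change 2.46, SE 0.41, adjusted p = 0.0035). In *fog-1*, which specifies sperm fate, Y54E10A.4a went from 29.9, 32.2 and 29.1 CPM to 23.5, 21.4 and 20.7 CPM, and Y54E10A.4b from 2.87, 1.97 and 2.81 CPM to 11.02, 14.4 and 16.5 CPM (log2 fold changes -0.47 and 2.46, adjusted p = 0.014 and 0.002). For both genes the 2 ages did not overlap in either isoform.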

How the data were processed

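Whole-animal polyadenylated RNA was measured in 12 libraries, 3 per genotype and adult day, on the first (1) and sixth (6) day. Per the labels and the study's methods, the authors assigned single reads to WBcel235 transcripts with kallisto and tested them with sleuth, and deposited an estimated count and a TPM per isoform, with tool versions not given in the sources used here. TPM divides by transcript length and keeps no depth. Groups were taken from the labels alone. The gene lists and the comparison were chosen with earlier results of these data known.

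Estimated counts were rounded after being summed per gene over 32905 isoforms, of which 307 had no gene (at most 0.1743% of counts). Of 22059 genes, 14576 passed edgeR's filter on low counts. All 12 libraries were fitted in R 4.3.3 with edgeR 4.0.16 (trimmed-mean scaling, quasi-likelihood test, terms for age, genotype and their interaction), and Benjamini-Hochberg adjusted p under 0.1 was called. Levels are CPM on the same scaling, so that each library's depth enters its values, and CPM of different genes are not compared per length. The fit was checked on simulated data. Alternatives were DESeq2 1.42.0, limma 3.58.1 on log2(TPM + 0.5), and on log2 of TPM plus 0.1 or 1, other scalings, other filters, an adjusted p of 0.05, a 2-fold minimum, isoforms in place of genes, the 6 libraries of 1 genotype alone, a replicate block and each library left out in turn. Same-numbered *fog-2(lf)* libraries of the 2 ages did not deviate together (r between -0.08 and -0.04 across genes, beside 0.00 to 0.07 for different numbers), so numbers were not used as pairs. Every pair of replicates differed by more than sampling noise.

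The genes named were the 15 largest increases and decreases among called genes at 10 CPM or more with no overlap between ages, up to 4 called members of each of 43 lists with the largest change (at 10 CPM or more, or 1 CPM where none reached 10), the 8 largest interactions in each direction, the 10 most abundant genes by TPM, *fog-2*, *ftr-1*, the genes of a list of the study and all vit genes, from which the text takes those it describes. Genes outside this are marked as chosen after their values were seen. Entries of 2 lists proved misplaced, the mlt genes among collagens and *col-93* among male markers, and were set apart after the values were seen. Strand was not used, so overlapping and antisense genes cannot be told apart, and near-identical copies such as the msp genes can exchange reads. No sequences are shown.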

Additional observations from a re-analysis of the deposited data

Results flagged for a closer look

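The age change in *fog-2(lf)* differed from that in wild type, by the interaction term of the edgeR fit, for 55 of the genes described. Each value is the log2 fold change in *fog-2(lf)* minus that in wild type. 31 of the 55 calls held without any 1 of the 12 libraries, and the balance of signs depended on scaling. The other 24 were lost without at least 1 library: *asb-2*, B0238.12, *bas-1*, *clec-49*, *cyp-14A3*, *cyp-35A2*, *egl-46*, *eif-3.I*, *fat-7*, *flp-6*, *fog-2*, *him-4*, *htp-3*, *mrps-11*, *noah-1*, *pfk-1.1*, *spp-12*, *syd-2*, *unc-18*, *unc-22*, *vit-3*, *vit-4*, *vit-5* and Y39E4B.6. Those of *asb-2*, *unc-18* and *bas-1* were lost without 10, 10 and 11 of the 12 libraries.

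Among genes of yolk and the intestine the difference was 3.17 for *vit-1*, 1.96 for *vit-2*, 3.02 for *vit-3*, 3.1 for *vit-4*, 2.18 for *vit-5* and 1.88 for *vit-6*. It was 1.39 for *asp-1*, 2.40 for *asp-17*, 2.79 for *ctsa-3.1*, 1.57 for *clec-49*, 3.53 for *spp-12* and 3.1 for *pud-1.2*. For lipid genes it was 5.98 for *lipl-1*, 3.90 for the acid ceramidase gene *asah-1*, 4.17 for the acid sphingomyelinase gene *asm-3*, 1.75 for *fat-1*, 2.0 for *fat-2*, 2.38 for *fat-3* and -3.01 for *fat-7*. For detoxification genes it was 2.36 for *ugt-25*, 1.79 for *cyp-35A2* and 6.19 for *cyp-14A3*, the last with an adjusted p of 0.28 without wild-type first-day replicate 3.

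For genes of muscle, matrix and surface it was -0.94 for *act-4*, -2.83 for *unc-22*, -3.02 for *unc-89*, -2.50 for *him-4*, -2.24 for *igcm-4*, -1.68 for *noah-1*, 2.75 for *nas-20* and 1.35 for *lon-1*. For genes of neurons it was -0.43 for *unc-18*, -0.47 for *dyn-1*, -0.78 for *syd-2*, 0.76 for *bas-1*, 2.35 for *flp-6*, -2.0 for *flp-13*, -1.66 for *egl-46* and -1.87 for *sem-4*.

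For genes of metabolism, translation and folding it was -1.39 for *aldo-1*, -0.58 for *pfk-1.1*, 0.45 for *asb-2*, 0.84 for *rpl-11.1*, 0.55 for *rpl-24.2*, 0.37 for *mrps-11*, 0.44 for *eif-3.I* and 0.80 for *dnj-22*. For genes of the germline and sex determination it was -0.76 for *cdc-25.2*, -0.81 for *alg-2*, 0.36 for *htp-3*, -0.57 for *fog-2* and 0.58 for *ftr-1*. Under library totals *asb-2*, *rpl-24.2*, *mrps-11*, *eif-3.I*, *htp-3*, *ftr-1* and, of the neuronal genes, *bas-1* did not pass.

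The remaining values were -2.25 for B0238.12, -3.28 for the C-type lectin gene *clec-266*, -4.03 for the ribonuclease H gene *rnh-1.3* and 5.91 for Y39E4B.6. *rnh-1.3* was at 93.3, 14.9 and 7.22 CPM on the first day and 4.28, 3.59 and 4.98 CPM on the sixth in *fog-2(lf)*. Y39E4B.6 was at 18.7, 10.5 and 15.1 CPM on the first day and at 1778, 15 and 11 CPM on the sixth, so sixth-day replicate 1 alone set it, and without that library the difference was 0.41 (adjusted p = 0.63).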

How the results depend on the processing

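The number of genes called with age in *fog-2(lf)* was 5712. It was 5909 with DESeq2, 5702 with DESeq2's size factors in edgeR, 5877 with library totals, 5193 with no filter and 5076 with limma on log2(TPM + 0.5). At a 2-fold minimum it was 2198, and leaving out single libraries gave 4098 to 6560. In wild type a 2-fold minimum gave 3692, and single libraries left out gave 5849 to 7332. The count for the interaction was 2223. It was 3454, 3695 and 3698 with limma on log2 of TPM plus 0.1, 0.5 and 1, 1068 at an adjusted p under 0.05, 1353 at a 2-fold minimum, 855 over genes with a called isoform and 3851 at an unadjusted p under 0.05, the last added after the data were seen. Single libraries left out gave 1021 to 3302. With the replicate block the counts were 5866, 2190 and 7164 for *fog-2(lf)*, the interaction and wild type, and no list count in *fog-2(lf)* moved by over 1.5 times. The 6 libraries of 1 genotype cannot give an interaction. The age change of Y39E4B.6 in *fog-2(lf)* reversed from 5.35 to -0.16 without sixth-day replicate 1, the lowest value without a single library, and the highest was 5.92.

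Of 126 described genes called with age in *fog-2(lf)*, 122 kept the call without any 1 library, and 121 did so under the other gene-level fits as well. *fat-1* and *fat-3* were lost only without single libraries, and *fog-2* (adjusted p = 0.21 with library totals, 0.19 in the 6 libraries alone) and Y39E4B.6 (0.28 with limma on log2(TPM + 0.5)) under both kinds. *cbd-1* was lost with limma on log2(TPM + 0.1) alone (0.11). By the isoform of lowest p, *noah-1* did not pass. Of 86 list counts in *fog-2(lf)*, 21 moved by over 1.5 times with library totals and up to 22 without a single library, first-day replicate 3. The causes were not tested. At this depth a gene under 3 counts in a library, as *spp-9* in first-day replicates 1 and 3, has a fold known only roughly.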

Other observations

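Members of smaller lists not described above also changed with age in *fog-2(lf)*, where 18.1% of all genes tested were higher and 21.1% lower. Of 25 tested genes of apoptosis and engulfment, 9 rose and 4 fell, with 5 rises without first-day replicate 3. *cps-6*, the endonuclease G gene, rose from 44.97, 48.8 and 47.97 CPM in first-day to 76.8, 71.1 and 76.1 CPM in sixth-day libraries (log2 fold change 0.66, SE 0.10, adjusted p = 0.00094). *wah-1*, which encodes the apoptosis-inducing factor of mitochondria, fell from 172, 184 and 178 CPM in first-day to 117, 122 and 115 CPM in sixth-day libraries (log2 fold change -0.60, SE 0.07, adjusted p = 0.00027). Of 40 tested Wnt and TGF-beta genes, 7 rose and 10 fell. The TGF-beta type II receptor gene *daf-4* fell from 62.5, 76.1 and 64.6 CPM in first-day to 39.8, 46.7 and 37.6 CPM in sixth-day libraries (log2 fold change -0.71, SE 0.10, adjusted p = 0.00048). *lon-1*, a target of the body size pathway, rose from 23.3, 26.2 and 38.99 CPM in first-day to 58.4, 48.1 and 58.8 CPM in sixth-day libraries (log2 fold change 0.90, SE 0.18, adjusted p = 0.0035).

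Of 43 insulin, TOR and AMPK genes, 7 rose and 10 fell, with 4 rises without sixth-day replicate 3, 5 falls without sixth-day replicate 1 and 11 rises under library totals. *aak-2*, a catalytic subunit of AMP-activated kinase, fell from 62.2, 76.8 and 65.02 CPM in first-day to 41.2, 46.1 and 42.4 CPM in sixth-day libraries (log2 fold change -0.65, SE 0.11, adjusted p = 0.0012). *rict-1*, a subunit of TOR complex 2, rose from 161, 199 and 166 CPM in first-day to 242, 261 and 281 CPM in sixth-day libraries (log2 fold change 0.58, SE 0.14, adjusted p = 0.012). *swm-1*, which encodes an inhibitor of sperm activation, rose from 11.04, 12.8 and 10.9 CPM in first-day to 24.6, 23.9 and 27.3 CPM in sixth-day libraries (log2 fold change 1.13, SE 0.18, adjusted p = 0.00089) in these animals without sperm. The acyl lipase gene *lips-10* rose from 5.83, 4.26 and 9.27 CPM in first-day to 27.7, 24.7 and 28.1 CPM in sixth-day libraries (log2 fold change 2.06, SE 0.29, adjusted p = 0.0005).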
